A study of Mus musculus with 3 samples.

Results

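Leukocytes in the islets of Langerhans of NOD-SCID mice were divided, selected on the measured UMIs (unique molecular identifiers, 1 per captured RNA molecule) of the genes named below, into a macrophage side, marked by C1q, and a dendritic-like side, marked by MHC class II genes with little or no C1q, and both sides were compared within each mouse. The islets came from 3 non-diabetic female NOD-SCID mice aged 10 to 11 weeks, and the labels give no treatment. NOD-SCID mice lack mature lymphocytes of the T and B lineages because of the scid mutation, which all 3 mice carry. Each mouse gave 1 droplet library (10x Genomics, 3′ chemistry) of single-cell RNA, so the mouse is the replicate. A barcode was taken as a leukocyte when at least 500 genes were detected, mitochondrial UMIs made up 15% or less, and it carried Ptprc, which encodes the leukocyte surface protein CD45, while drawing under 20% of its UMIs from Ins1, Ins2, Gcg, Sst and Ppy. The macrophage side took leukocytes with at least 2 of C1qa, C1qb and C1qc detected. The dendritic side took those with at least 2 UMIs of each of H2-Aa, H2-Ab1 and Cd74 and at most 1 C1q UMI in all. Of 16162 barcodes, 7490 passed the limits on genes and mitochondrial UMIs and 234 were leukocytes by this gate, of which 146 fell on the macrophage side, 62 on the dendritic side and 26 on neither. Mice 1, 2 and 3 gave 13, 37 and 96 cells to the macrophage side and 1, 9 and 52 cells to the dendritic side. Most cells of both sides therefore came from mouse 3, and the single dendritic-side cell of mouse 1 enters no comparison of levels.

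Macrophages and dendritic cells are both myeloid phagocytes that display peptides on MHC class II, but they use the captured material differently. Macrophages live in the tissue under the growth factor receptor encoded by Csf1r, digest most of what they take up in lysosomes, and secrete C1q, the recognition subunit of the classical complement pathway, together with apolipoprotein E. Conventional dendritic cells depend on Flt3 and form a cDC1 branch, which uses Batf3 and Irf8 and cross-presents antigen from dead cells, and a cDC2 branch, which presents on MHC class II to helper T cells. After maturation they raise Ccr7 and migrate to lymph nodes. Islets normally hold a resident macrophage population with a small number of dendritic cells.

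The sums behind the comparison differed in depth. Macrophage-side cells held a median of 13503, 8546 and 8653 UMIs in mice 1, 2 and 3, against 11473 and 11885.5 for dendritic-side cells of mice 2 and 3, and the summed UMIs were 323945 and 913163 for the macrophage side and 114747 and 590367 for the dendritic side of mice 2 and 3. Libraries shared 148, 9 and 13 barcodes in the pairs 1 and 2, 1 and 3, and 2 and 3, and 4 macrophage-side cells and 1 dendritic-side cell carried a shared barcode. Cells of every doublet score were kept, and 3 macrophage-side cells and 1 dendritic-side cell were among the top scores. RNA of acinar cells, the enzyme-secreting cells around islets, was present on both sides: at least 3 of 8 acinar markers were detected in 142 of 146 macrophage-side and 60 of 62 dendritic-side cells. Some shares of cells are given beside the same share in insulin-rich cells, which should lack leukocyte genes. Insulin-rich means at least 40% of UMIs from Ins1 and Ins2. The cells used are the 401 of 410 of mouse 3 with at least 2000 UMIs (median 32555.5 UMIs over the 410). For lymphoid markers and Ighm, 1321 insulin-rich cells of all mice were used.

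The class II genes of the gate made up nearly the same share of RNA on both sides. H2-Aa, the alpha chain of the I-A molecule, took 1.31% of macrophage-side UMIs and 1.44% of dendritic-side UMIs in mouse 3, and 0.903% and 0.942% in mouse 2. H2-Ab1, its beta chain, took 1.22% and 1.41% in mouse 3 and 0.852% and 0.931% in mouse 2. Cd74, the invariant chain that guards the peptide groove, took 3.78% and 3.60% in mouse 3 and 2.46% and 2.09% in mouse 2. The macrophage side of mouse 1 was lower for all 3 genes, at 0.636%, 0.560% and 1.69%. The class II limit was also met by 142 of 146 macrophage-side cells, and the rule itself sets the sides apart in C1q. C1qa, C1qb and C1qc took 0.674%, 0.485% and 0.286% of macrophage-side UMIs in mouse 3, 0.600%, 0.468% and 0.242% in mouse 2 and 0.539%, 0.401% and 0.245% in mouse 1. These levels describe the gate, and none was tested.

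Promoters of the class II genes are shown because their shared elements are the textbook basis of joint expression of the family: the X box binds the RFX complex, the Y box binds NF-Y, and the coactivator CIITA assembles on both. RefSeq (GRCm38.p6, the C57BL/6J reference and not the NOD haplotype) gave windows from 250 bases before to 50 bases after the start for 7 of 9 genes searched. Capitals mark the Y box, searched as TGATTGG, and the X box, searched as AAC, any 2 bases and then ATGATG, on both strands. The H2-Aa window at chr17:34287774-34288073 (minus strand), the H2-Eb1 window at chr17:34305617-34305916 (plus strand), the H2-DMb1 window at chr17:34152941-34153240 (plus strand) and the H2-Ob window at chr17:34238655-34238954 (plus strand) read 5′ to 3′ as follows.
H2-Aa: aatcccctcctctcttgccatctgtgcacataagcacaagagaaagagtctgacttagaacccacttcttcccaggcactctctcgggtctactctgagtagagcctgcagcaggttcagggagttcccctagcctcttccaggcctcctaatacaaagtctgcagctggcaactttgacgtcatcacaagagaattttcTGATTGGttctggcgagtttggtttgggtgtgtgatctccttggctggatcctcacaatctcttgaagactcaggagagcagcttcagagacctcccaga
H2-Eb1: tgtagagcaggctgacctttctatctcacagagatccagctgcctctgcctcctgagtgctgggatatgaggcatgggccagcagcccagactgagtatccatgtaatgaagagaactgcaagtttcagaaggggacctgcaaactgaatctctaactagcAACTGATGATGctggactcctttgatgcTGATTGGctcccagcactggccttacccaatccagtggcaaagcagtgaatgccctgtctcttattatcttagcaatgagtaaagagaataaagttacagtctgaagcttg
H2-DMb1: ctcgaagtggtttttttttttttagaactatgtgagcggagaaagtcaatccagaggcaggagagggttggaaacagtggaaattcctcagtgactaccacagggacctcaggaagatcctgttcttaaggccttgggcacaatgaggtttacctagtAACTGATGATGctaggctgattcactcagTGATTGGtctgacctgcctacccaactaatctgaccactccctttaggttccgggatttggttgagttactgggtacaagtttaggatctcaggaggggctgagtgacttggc
H2-Ob: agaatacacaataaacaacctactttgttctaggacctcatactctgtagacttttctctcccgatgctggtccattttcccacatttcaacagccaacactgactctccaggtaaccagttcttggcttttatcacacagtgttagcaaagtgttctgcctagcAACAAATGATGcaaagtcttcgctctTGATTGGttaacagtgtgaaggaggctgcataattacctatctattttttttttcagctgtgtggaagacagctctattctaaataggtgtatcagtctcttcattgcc
The Y box letters lay 50 bases before the start of H2-Aa, 61 before H2-Eb1, 63 before H2-DMb1 and 59 before H2-Ob. The X box letters stood upstream of the Y box in H2-Eb1, H2-DMb1 and H2-Ob, with 17, 18 and 15 bases between them, and did not match in the H2-Aa window. Over all genes found, 6 of 7 held the Y box and 4 of 7 the X box, against 7.8% and 0.137% of 32817 RefSeq promoter windows, and 0.0274% of windows held both. A match of letters describes the window only.

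**Figure D1:**
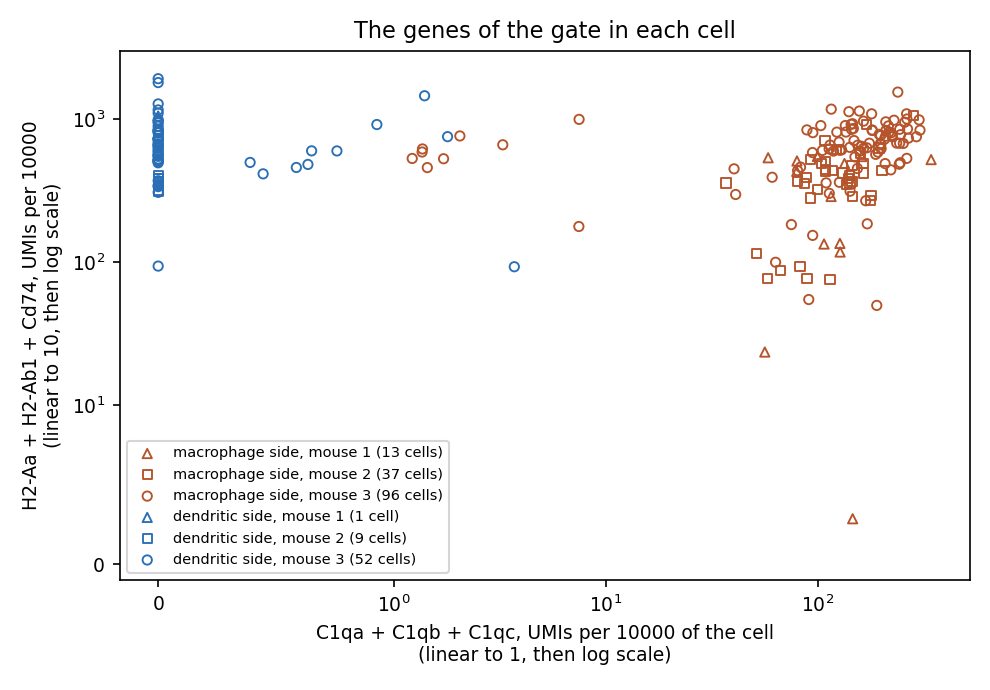
Each point is 1 of the 208 cells on the macrophage or dendritic side, placed by its C1q UMIs and its summed H2-Aa, H2-Ab1 and Cd74 UMIs per 10000 UMIs, coloured by side and shaped by mouse. The macrophage side (146 cells) and the dendritic side (62 cells) overlap along the class II axis and separate along the C1q axis, with a small group of low-C1q cells near the edge of the gate.

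The edge of the gate crossed a group of cells. On the macrophage side 138 cells carried all 3 C1q genes and 8 carried 2, and the median was 126 C1q UMIs per cell. Of the dendritic side, 52 cells had no C1q UMI and 10 had 1. Just inside the macrophage edge, 7 cells of mouse 3 had 2 to 5 C1q UMIs among at least 14610 UMIs. At least 2 of the dendritic genes Flt3, Zbtb46, Dpp4 and Napsa were detected in 6 of these 7 cells, at least 2 of the cDC1 genes Xcr1, Clec9a, Itgae and Tlr3 in 5, and at least 2 of the macrophage genes Adgre1, Fcgr1, Ms4a7 and Csf1r in 2. Among the other 139 macrophage-side cells, with 6 or more C1q UMIs, those counts were 7, 2 and 133. The 7 low-C1q cells thus more often carried dendritic than macrophage genes, although the rule places them on the macrophage side. The 10 dendritic-side cells with 1 C1q UMI gave counts of 7, 7 and 1. Just outside both sides, 5 cells met the class II limit and had 2 to 5 UMIs of 1 C1q gene. These sets of 4 genes were chosen after values were seen. Levels of dendritic genes on the macrophage side of mouse 3 include the UMIs of the 7 cells.

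The sets of 4 genes, chosen after values were seen, describe the sides beyond the genes of the gate and are no independent check of their names. At least 2 of the 4 macrophage genes were detected in 135 of 146 macrophage-side cells (12 of 13, 36 of 37 and 87 of 96 in mice 1, 2 and 3) and in 3 of 62 dendritic-side cells. At least 2 of the 4 dendritic genes were detected in 49 of 62 dendritic-side cells (1 of 1, 7 of 9 and 41 of 52) and in 13 of 146 macrophage-side cells, 12 of them in mouse 3. The sides did not overlap in either share in mouse 2 or mouse 3. Dpp4 also had a UMI in 39.2% of insulin-rich cells, so it alone does not mark a leukocyte, while Flt3 was detected in 0 of those 401 cells, which allows up to 0.748%, Csf1r in 0.998% and Ms4a7 in 1.75%.

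Genes were compared on UMIs summed per mouse and side and expressed as counts per 1000000 UMIs of the side (CPM). Only mouse 3 reached the 10 cells per side that had been set as the minimum, so its sums are described first. Among 2815 genes outside the gate with at least 50 CPM on the higher side, 288 (10.2%) were at least 2-fold higher on the macrophage side and 312 (11.1%) at least 2-fold higher on the dendritic side. In mouse 2, with 9 dendritic-side cells, these counts were 485 (18.1%) and 591 (22.1%) of 2673 genes. With TMM scaling, which allows for a few genes taking much of a library, the counts of mouse 3 became 318 and 208. A minimum of 9 cells, adopted after the cell numbers were seen, let mice 2 and 3 into edgeR's quasi-likelihood test with the mouse as a block and Benjamini-Hochberg adjustment at 0.05. That test called 499 of 4784 genes (10.4%), 310 higher on the macrophage side (6.48%) and 189 higher on the dendritic side (3.95%). The shares of each direction are the background for every list count below. With library sizes alone in place of TMM the split was 342 and 322, so 51.5% instead of 62.1% of the called genes were higher on the macrophage side, and the median log2 difference of all genes moved from 0.03 to -0.12. Without the limit on Ptprc, which gave 51 and 139 macrophage-side and 15 and 71 dendritic-side cells in mice 2 and 3, 247 (4.1%) and 126 (2.09%) of 6031 genes were called. In that setting 3 of 7 tested endothelial and 1 of 5 tested duct genes were called, all higher on the dendritic side (list medians -3.75 and -3.13). With the limit 1 gene of each list was tested, and neither was called. The sides of that setting were not restricted to cells with a Ptprc UMI, and why calls were lost in it was not tested. The fit has 4 sums and 1 residual degree of freedom, and its adjusted p-values below refer to these 2 mice. Mouse 1 adds the macrophage level of a further animal.

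Named tissue macrophage genes were high in the macrophage sums of all 3 mice and near 0 on the dendritic side. Apoe, which encodes apolipoprotein E (chr7:19696109-19699188, GRCm38), stood at 15166, 20204 and 12150.1 CPM in the macrophage sums of mice 1, 2 and 3 and at 8.71 and 22 CPM in the dendritic sums of mice 2 and 3. The lowest macrophage value of Apoe was far above the highest dendritic value, a 552-fold difference in mouse 3 (95% counting interval 323 to 1037). Its log2 difference in edgeR was 9.66 ± 0.41 (SE, adjusted p = 4.02e-11). Apoe had a UMI in 15% of insulin-rich cells, and without the limit on Ptprc its log2 difference was 4.52 with an adjusted p of 0.17. Ms4a7, a membrane protein gene of resident macrophages, stood at 1335, 1281 and 1158 CPM against 0 and 1.69 CPM (1 UMI), a ratio of 683 in mouse 3 (counting interval 122 to 27016) and at least 49.0-fold in mouse 2 when its 0 is set at 3 UMIs. Fcgr1, the high-affinity IgG receptor CD64, was at 795, 537 and 608 CPM against 8.71 and 25.4 CPM (log2 difference 4.94 ± 0.42, adjusted p = 3.06e-07). Adgre1, the gene of the F4/80 antigen, was at 339, 228 and 181 CPM against 8.71 and 5.08 CPM. In each of these genes every macrophage sum exceeded every dendritic sum.

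Of the 15 genes of the macrophage core list, 13 were tested, 11 were higher on the macrophage side and none on the dendritic side, with a median log2 difference of 3.98 against 0.03 over all genes. The list was drawn up with results of these data known, so its direction is a description. Csf1r, the receptor for the macrophage growth factor, differed by 3.98 and C5ar1, the receptor for complement fragment C5a, by 5.15. The broad myeloid genes of the list differed less: Lyz2, the gene of lysozyme, was at 3504 and 4043 CPM against 349 and 628 CPM in mice 2 and 3, and Tyrobp, an adaptor of activating receptors, at 2343 and 2177 CPM against 549 and 974 CPM. Both were thus plainly present on the dendritic side, in 84.6% and 96.2% of its mouse 3 cells against 2.74% of insulin-rich cells for each gene. Aif1, which encodes IBA1, and Mrc1, the mannose receptor, did not pass the test. Aif1 stood at 954 and 705 CPM against 767 and 457 CPM (adjusted p = 0.22), and Mrc1 at 74.1 and 31.8 CPM against 52.3 and 39.0 CPM (adjusted p = 0.91). Mertk, a receptor for dead cells, was too low for the fit, with 9 and 19 UMIs against 0 and 0. Cd163, a haemoglobin scavenger receptor, had 3 and 0 UMIs against 0 and 6.

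The 12 largest differences toward the macrophage side brought in genes that are best known from microglia and other long-resident macrophages. Among them were Apoe, Ms4a7, Tmem119, Olfml3, Fcgr4, Col14a1, Lilra5, Cxcl14, Stab1, Itga9 and Trem2. Tmem119, widely used as a microglia marker, was at 138, 142 and 142 CPM in the macrophage sums and had 0 UMIs in both dendritic sums, so it was at least 28.0-fold higher in mouse 3 and at least 5.43-fold higher in mouse 2 with the 0 set at 3 UMIs per library. Olfml3, a secreted glycoprotein gene, was at 175, 89.5 and 120.5 CPM against 0 and 0, at least 23.7-fold and 3.42-fold. Fcgr4, an activating IgG receptor, was at least 19.2-fold and 3.31-fold higher. These 3 genes were found in 57.3%, 57.3% and 49.0% of macrophage-side cells of mouse 3 and in 0 of its 52 dendritic-side cells, which allows a share of up to 5.77% by counting error alone. Trem2, a lipid-sensing receptor that signals through Tyrobp, was at 927, 707 and 448 CPM against 8.71 and 1.69 CPM (7.42 ± 0.54, adjusted p = 4.22e-08). Cxcl14, a chemokine, was at 281, 235 and 399 CPM against 0 and 1.69 CPM. All macrophage sums of both genes lay above both dendritic sums. Stab1, a scavenger receptor, was at 159, 92.6 and 53.7 CPM in the macrophage sums, against 0 dendritic-side UMIs in mice 2 and 3.

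**Figure D2:**
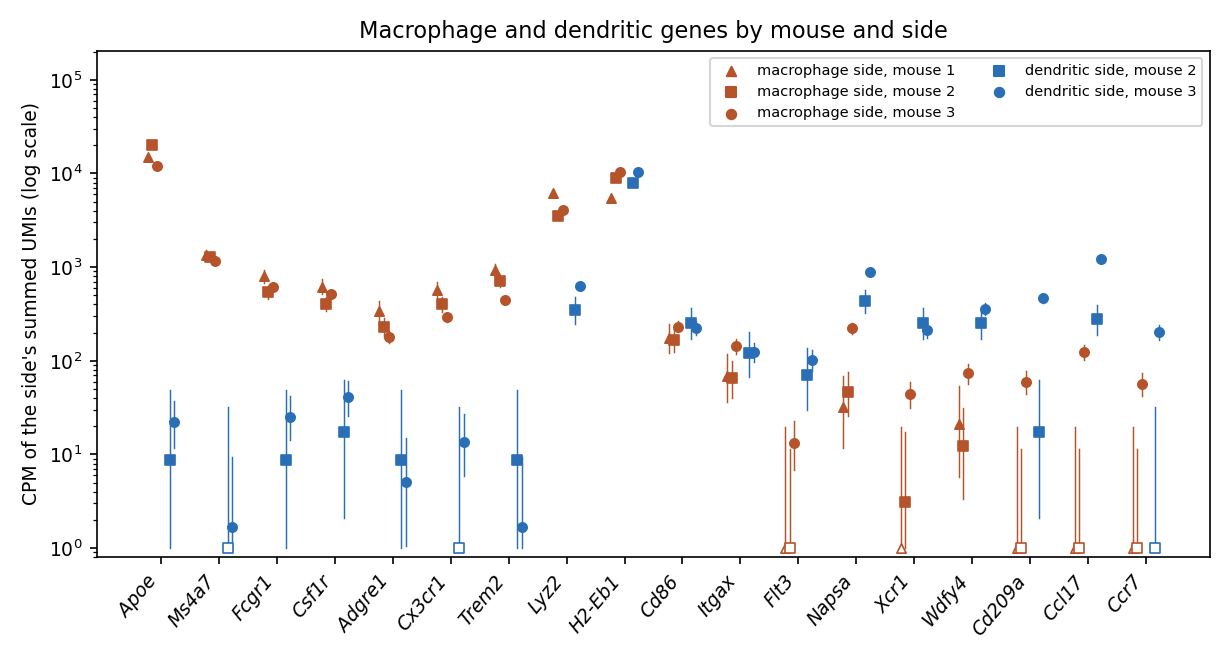
CPM on a log axis for selected genes in the summed UMIs of each mouse and side, with bars for 95% Poisson counting intervals cut at 1 and open symbols at 1 for sums with no UMI. The macrophage sums of Apoe, Ms4a7 and Trem2 lie above the dendritic sums in mice 2 and 3, and those of Flt3, Wdfy4 and Ccl17 lie below.

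Dendritic genes were lower in level, and the sides differed less in them. Flt3, the receptor on which conventional dendritic cells depend (chr5:147330741-147400489, GRCm38), was at 69.7 and 102 CPM in the dendritic sums of mice 2 and 3 and at 0, 0 and 13.1 CPM in the macrophage sums of mice 1, 2 and 3. The ranges did not overlap, and the difference was 7.73-fold in mouse 3 (counting interval 4.12 to 15.8) and at least 7.53-fold in mouse 2, with a log2 difference of -3.15 ± 0.54 (adjusted p = 0.000758). Flt3 was found in 51.9% of dendritic-side and 8.33% of macrophage-side cells of mouse 3, and in 16% and 0% (0 of 86 cells, which allows up to 3.49%) after every cell was thinned to 2000 UMIs. Napsa, an aspartic protease gene, was at 436 and 883 CPM against 31.8, 46.3 and 221 CPM (-2.29 ± 0.35, adjusted p = 0.00023), and Dpp4, the peptidase CD26, at 78.4 and 119 CPM against 10.6, 0 and 26.3 CPM (-2.43 ± 0.51, adjusted p = 0.00552). These were the 3 of 6 tested genes of the dendritic core list that passed, all higher on the dendritic side. The call of Dpp4 was lost without the Ptprc limit (adjusted p = 0.12), and without the mouse block the calls of Dpp4 (adjusted p = 0.091) and Napsa (adjusted p = 0.13) were lost. Itgax, the gene of the dendritic surface marker CD11c, did not separate the sides, at 64.8 and 142 CPM on the macrophage side against 122 and 124 CPM (0.01 ± 0.33, adjusted p = 0.99). Ciita and Relb were also short of the threshold, at -0.39 ± 0.33 and -0.64 ± 0.42. Zbtb46, Kmo and Bcl11a had too few UMIs for the fit. Zbtb46, a transcription factor of conventional dendritic cells, had 1 and 24 UMIs on the dendritic side and 0 and 9 on the macrophage side.

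The 12 largest differences toward the dendritic side were Ccl17, Ifi205, Ffar4, St3gal5, Flt3, Gcsam, Mycl, Mcemp1, Traf1, Slamf7, Cd209a and H2-Ob. Ccl17, a chemokine that draws CCR4-bearing T cells, was at 279 and 1208 CPM against 0, 0 and 123 CPM, 9.85-fold higher in mouse 3 (counting interval 8.06 to 12.1), with a log2 difference of -3.72 ± 0.61 (adjusted p = 0.00938). Its UMIs were found in 55.8% of dendritic-side and 10.4% of macrophage-side cells of mouse 3. Traf1, an adaptor of TNF receptor signalling, reached 401 and 754 CPM against 0, 15.4 and 139 CPM and was found in 92.3% of dendritic-side cells of mouse 3. Slamf7, a receptor of the SLAM family, was at 78.4 and 186 CPM against 26.5, 6.17 and 24.1 CPM and was found in 75% of those cells against 11.5% of macrophage-side cells. Both dendritic sums of Traf1 and of Slamf7 exceeded all 3 macrophage sums. Mycl, a Myc family factor used by dendritic cells, had 7 and 26 UMIs against 0 and 6. Ffar4, a receptor for long-chain fatty acids, had 11 and 40 UMIs against 1 and 8. Without the mouse block, the calls of Ccl17 (adjusted p = 0.56), Traf1 (0.26), Mcemp1 (0.11) and Cd209a (0.63) were lost. Without the Ptprc limit, Mycl was lost (adjusted p = 0.06).

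All 10 genes of the cDC1 list were tested, and 6 were higher on the dendritic side and none on the macrophage side. Their median log2 difference was -2.32, and 3.95% of all 4784 genes were called higher on the dendritic side. Xcr1, a chemokine receptor that defines the branch, was at 253 and 212 CPM against 0, 3.09 and 43.8 CPM (-2.83 ± 0.57, adjusted p = 0.0207). Tlr3, a sensor of double-stranded RNA, was at 105 and 91.5 CPM against 0, 6.17 and 14.2 CPM (-2.83 ± 0.47, adjusted p = 0.000562). Wdfy4, required for cross-presentation, was at 253 and 357 CPM against 21.2, 12.3 and 73.4 CPM (-2.63 ± 0.38, adjusted p = 0.00024). Both dendritic sums of these genes exceeded all macrophage sums. Irf8, the factor that specifies the branch, was at 863 and 881 CPM against 217, 164 and 376 CPM, Clec9a, a receptor for dead cells, at 69.7 and 89.8 CPM against 15.9, 6.17 and 26.3 CPM, and Ppt1, a lysosomal thioesterase, at 802 and 506 CPM against 132, 95.7 and 179.6 CPM, and all 3 passed. Itgae, which encodes CD103, had 34 and 141 UMIs against 0 and 46, and its adjusted p was 0.073. Naaa, a lipid amidase gene, was also short of the threshold, Batf3 stood at 105 and 99.9 CPM against 52.5 and 52.6 CPM (adjusted p = 0.2), and Cadm1 at 122 and 110 CPM against 145 and 114 CPM. With at least 2 UMIs of every C1q gene asked of the macrophage side, which leaves out the low-C1q cells, 9 of 10 cDC1 genes were called, Itgae among them at -4.57. Without the Ptprc limit 5 were called, with Clec9a (adjusted p = 0.07) and Irf8 (adjusted p = 0.14) lost.

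Of 8 tested genes of the cDC2 list, 5 were higher on the dendritic side, 1 on the macrophage side, and the median was -1.52. The shares called in these directions over all 4784 genes were 3.95% and 6.48%. Cd209a, a lectin of this branch, was at 17.4 and 462 CPM on the dendritic side and at 0, 0 and 59.1 CPM on the macrophage side, from 2 UMIs in mouse 2 and 273 in mouse 3 on the dendritic side (-2.89 ± 0.40, adjusted p = 8.1e-05). Mgl2, a galactose-binding lectin, was at 462 and 903 CPM against 74.2, 37.0 and 279 CPM. Clec10a, its close paralog, was at 26.1 and 129 CPM against 31.8, 9.26 and 38.3 CPM, higher on the dendritic side within mice 2 and 3 although the ranges over mice overlap and mouse 2 gave 3 UMIs on each side. Tnfsf9, the ligand of 4-1BB, differed by -1.55 ± 0.33 and Epcam by -1.48 ± 0.44. Epcam is an epithelial gene with a UMI in 83.8% of insulin-rich cells, and its part in this value from free RNA was not tested. The member that went the other way was Sirpa, often used to mark cDC2, at 133 and 139 CPM on the macrophage side against 17.4 and 35.6 CPM (2.29 ± 0.39, adjusted p = 0.000616). Klf4 and Ltb did not pass, and Irf4 and Clec4a4 had too few UMIs for the fit. Without the mouse block only Tnfsf9 of the 5 was called, and without the Ptprc limit 2 of them were.

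Genes of the branches were also counted in single cells. These are the cells behind the sums, and the sets were chosen after values were seen, so the counts are a description. At least 2 of the cDC1 genes Xcr1, Clec9a, Itgae and Tlr3 were detected in 30 of 62 dendritic-side cells, 7 of 9 in mouse 2 and 23 of 52 in mouse 3. At least 2 of the cDC2 genes Cd209a, Clec10a, Mgl2 and Irf4 were detected in 19 cells, 1 of 9 in mouse 2 and 18 of 52 in mouse 3. Only 1 cell met both rules. The maturation genes Ccr7, Fscn1, Il4i1 and Cacnb3 were found 2 or more at a time in 9 cells, 0 of 9 in mouse 2 and 8 of 52 in mouse 3, with the dendritic-side cell of mouse 1 as the ninth. None of these 3 rules was met by 7 of 62 cells. On the macrophage side the rules for cDC1, cDC2 and maturation were met by 7, 9 and 1 of 146 cells. By these rules the dendritic side was a mixture, and its counts differed between mouse 2 and mouse 3 but were too small for a test over mice.

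**Figure D3:**
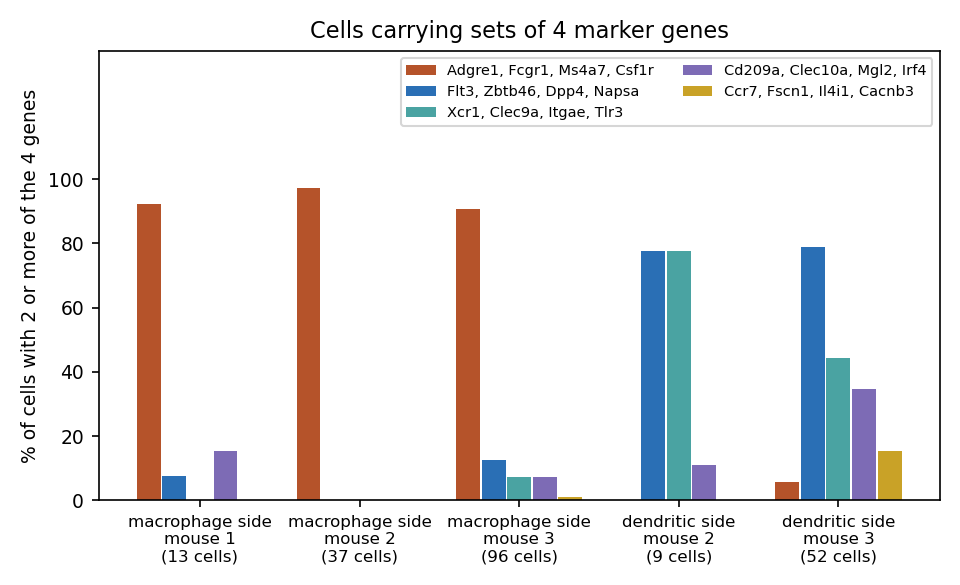
Percentage of cells of each side and mouse in which at least 2 of 4 marker genes were detected, for the macrophage, dendritic, cDC1, cDC2 and maturation sets. The macrophage set is at 90.6% or more in the macrophage side of each mouse, and the cDC1 set is at 77.8% of dendritic-side cells in mouse 2 (7 of 9) and 44.2% in mouse 3 (23 of 52).

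Of 8 tested genes of the mature migratory list, 4 were higher on the dendritic side, namely Ccl17, Ccl22, Fscn1 and Ccr7, and none on the macrophage side. The share called higher on the dendritic side over all 4784 genes was 3.95%. Ccr7, the receptor that guides dendritic cells to lymph nodes, was at 203 CPM on the dendritic side of mouse 3, from 10 of 52 cells, and at 56.9 CPM on the macrophage side, where 3 of 96 cells carried it. In mouse 2 it had 0 UMIs on both sides. Fscn1, an actin-bundling protein of dendrites, had 130 UMIs in 9 dendritic-side cells and 55 UMIs in 1 macrophage-side cell of mouse 3. Ccl22, a chemokine paired with Ccl17, was at 52.3 and 261 CPM against 0, 18.5 and 35 CPM. Ccr7 differed by -1.70 ± 0.41 (adjusted p = 0.012) and Fscn1 by -1.71 ± 0.39 (adjusted p = 0.00681), but with no UMI of Ccr7 and 1 UMI of Fscn1 on each side of mouse 2 these 2 values rest on mouse 3, while the CPM of Ccl17 and Ccl22 was higher on the dendritic side in both mice, for Ccl22 from 6 UMIs on each side in mouse 2. Without the mouse block none of the 4 was called. Il12b, the gene of an IL-12 subunit, Ccl5, Socs2 and Tmem123 did not pass. Il4i1, with 82 UMIs against 19 in mouse 3, Cacnb3, Cd274 and Cd200 had too few UMIs for the fit.

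Class II presentation genes outside the gate went in both directions. The beta chain H2-Eb1 was at 8893 and 10379 CPM on the macrophage side and at 7922 and 10361 CPM on the dendritic side of mice 2 and 3, a ratio of 1.0 in mouse 3 (counting interval 0.970 to 1.03) and a log2 difference of 0.25 ± 0.23 (adjusted p = 0.63). H2-DMa and H2-DMb1, which load peptide, did not pass either, at -0.40 ± 0.31 and -0.42 ± 0.30. H2-DMb2, the other loading beta chain, lay further from 0, at 77.2 and 97.5 CPM on the macrophage side and 139 and 186 CPM on the dendritic side (-0.75 ± 0.31, adjusted p = 0.15). None of these 4 misses shows that the levels are equal. The chains of H2-O, which restrains loading, did differ. H2-Ob (chr17:34238903-34254414, GRCm38) was at 52.3 and 98.2 CPM on the dendritic side against 10.6, 9.26 and 11.0 CPM on the macrophage side, 8.97-fold in mouse 3 (counting interval 4.55 to 19.7), with a log2 difference of -2.84 ± 0.49 (adjusted p = 0.000777). H2-Oa was at 113 and 57.6 CPM against 5.30, 6.17 and 15.3 CPM (-2.34 ± 0.53, adjusted p = 0.00708). The CPM of both chains was thus higher on the dendritic side in both mice. In mouse 2, with 9 dendritic-side cells, these levels came from few UMIs. Ctss, the protease that trims the invariant chain, went the other way, at 3433 and 3130 CPM on the macrophage side against 610 and 803 CPM (2.38 ± 0.29, adjusted p = 1.94e-05). Of 9 tested genes in the list, these 3 were the ones that passed, and the median was -0.40. The RFX subunit genes Rfx5 and Rfxank had at most 11 UMIs in any sum. Of the class I list, 1 of 11 tested genes passed, Psmb9, an immunoproteasome subunit, at -1.07 ± 0.31. That is near the 10.4% called in either direction over all 4784 genes. No class I gene was called without the mouse block or without the Ptprc limit.

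Digestion and receptor genes stood on the macrophage side. Of 24 lysosome genes, all tested, 17 were higher on the macrophage side and none on the dendritic side, and the median was 1.63. The share called higher on the macrophage side over all 4784 genes was 6.48%. Lgmn, an asparagine-specific protease, was at 1049, 546 and 709 CPM against 8.71 and 37.3 CPM (4.66 ± 0.42, adjusted p = 5.87e-07), Ctsd at 2893, 503 and 587 CPM against 8.71 and 35.6 CPM, and Ctsb at 3005, 1176 and 1326 CPM against 61.0 and 191 CPM. Every macrophage sum of these cathepsins and of Lgmn exceeded both dendritic sums. Ctsd and Ctsb had a UMI in 81.8% and 71.6% of insulin-rich cells, and the part of free RNA in their values was not tested. Psap, the saposin precursor, was at 1330 and 2410 CPM against 1255 and 2392 CPM and did not differ beyond its error (0.21 ± 0.27, adjusted p = 0.75). Of 6 Fc receptor genes, 4 were higher on the macrophage side, namely Fcgr1, Fcgr4, Fcgr3 and Fcer1g, and Fcer1g was lost without the Ptprc limit (adjusted p = 0.18). Fcgr3, the low-affinity IgG receptor, stood at 349.7, 296 and 417 CPM against 0 and 22 CPM. The inhibitory receptor Fcgr2b, at 83.3 and 162 CPM against 69.7 and 136 CPM, and the neonatal receptor Fcgrt did not pass.

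Uptake, lipid and iron genes followed the same direction with exceptions. Of 10 tested uptake and scavenging genes, 1 was higher on the dendritic side and 4 on the macrophage side, namely Stab1, Msr1, Itgb5 and Axl. The shares called in these directions over all 4784 genes were 3.95% and 6.48%. Itgb5, an integrin subunit used in the uptake of apoptotic cells, was at 281, 426 and 393 CPM against 8.71 and 6.78 CPM (5.90 ± 0.46, adjusted p = 1.13e-07). Axl, a receptor tyrosine kinase for dead cells, was at 133 and 180 CPM against 8.71 and 50.8 CPM (2.25 ± 0.39). Cd36, a fatty acid and lipoprotein receptor, was the member higher on the dendritic side, at 166 and 94.9 CPM against 27.8 and 30.7 CPM in mice 2 and 3, although the macrophage sum of mouse 1 was 175 CPM. The call of Cd36 was lost without the Ptprc limit (adjusted p = 0.088) and with DESeq2 (adjusted p = 0.18). Of 9 tested lipid genes, 5 were higher on the macrophage side, among them Abca1, a cholesterol exporter, at 3.86 ± 0.60. Fabp5, a fatty acid binding protein, was higher on the dendritic side (-1.44 ± 0.44, adjusted p = 0.0488), with 0 and 369 CPM against 12.3 and 105 CPM in mice 2 and 3, so the direction rests on mouse 3, and its macrophage sum in mouse 1 was 1362 CPM. Of 7 tested iron and haem genes, 5 were higher on the macrophage side. Fth1, the ferritin heavy chain, was at 12283, 19145 and 17690.2 CPM against 5473 and 5436 CPM (1.92 ± 0.23, adjusted p = 1.87e-05), and Slc11a1, the phagosomal metal transporter, differed by 4.21 ± 0.55.

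**Figure D4:**
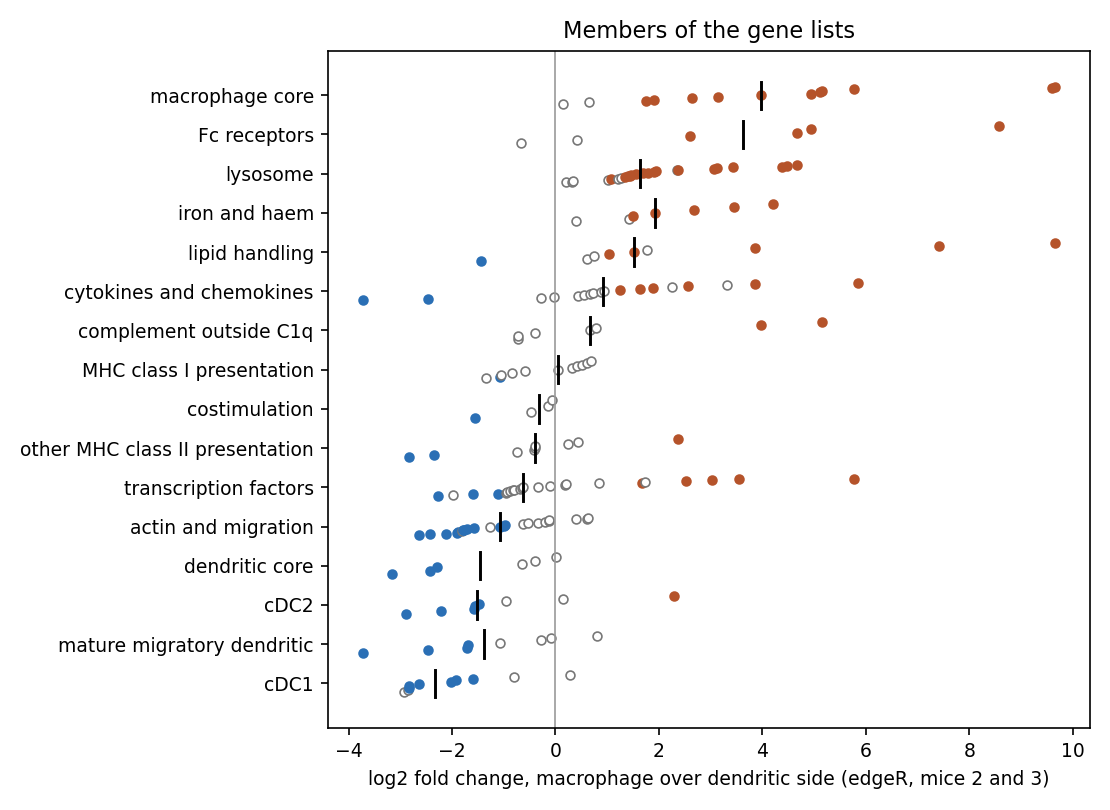
The log2 difference between macrophage and dendritic sides for every tested gene of each list, 1 row per list, with filled points for genes that passed the edgeR threshold and a black bar for the list's median; values above 0 are higher on the macrophage side. The median of the macrophage core list is 3.98 and that of the cDC1 list -2.32, against 0.03 over all 4784 genes.

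Chemokines and receptors were divided between the sides. Of 18 tested cytokine and chemokine genes, 6 were higher on the macrophage side and 2 on the dendritic side, the latter being Ccl17 and Ccl22. The shares called in these directions over all 4784 genes were 6.48% and 3.95%. Cxcl2, a neutrophil attractant, was at 996, 2837 and 3625 CPM against 453 and 788 CPM (2.57 ± 0.29, adjusted p = 8.95e-06). Ccl12 was at 90.1, 129.7 and 341 CPM against 0 and 6.78 CPM, and Ccl3 at 721, 756 and 744 CPM against 8.71 and 86.4 CPM. Ccl4 was the most abundant of these on the macrophage side, at 3099.9, 4050.1 and 3823 CPM, but its dendritic sums of 105 and 1071 CPM differed widely between mice 2 and 3 and it did not pass (3.32 ± 1.08, adjusted p = 0.26). Il1b did not separate the sides, at 417 and 707 CPM against 148 and 1011 CPM (adjusted p = 0.67), and Tnf was short of the threshold (adjusted p = 0.057). Without the mouse block, 3 and 0 genes of the list were called, and without the Ptprc limit 5 and 1, with Ccl3 lost (adjusted p = 0.11). Among chemokine receptors, Cx3cr1, the fractalkine receptor, was at 572, 401 and 290.2 CPM against 0 and 13.6 CPM (4.98 ± 0.48, adjusted p = 1.66e-06). Ccr2, the receptor of monocyte entry, was higher on the dendritic side, at 314 and 259 CPM against 5.30, 37.0 and 108 CPM (-1.72 ± 0.37, adjusted p = 0.0065), and without the Ptprc limit its adjusted p was 0.052. The macrophage and dendritic ranges of both receptors were apart.

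Of 23 tested transcription factors, 5 were higher on the macrophage side and 3 on the dendritic side. The shares called in these directions over all 4784 genes were 6.48% and 3.95%. Bhlhe40 was at 87.1 and 335 CPM on the dendritic side against 31.8, 12.3 and 66.8 CPM (-2.26 ± 0.35, adjusted p = 0.000248, lost without the mouse block at 0.28), and Id2, which suppresses lymphoid programmes and is needed for cDC1, at 723 and 619.95 CPM against 228, 204 and 353 CPM. Without the block 1 of the 3 dendritic-side calls was made. Cebpb, Cebpa, Maf and Runx1 were among those higher on the macrophage side, while Spi1, the master factor of myeloid cells, was at 259 and 379 CPM against 279 and 352 CPM (adjusted p = 0.82). Of 23 genes for actin and migration, 12 were higher on the dendritic side and none on the macrophage side, with a median of -1.08, and Wdfy4 among them is also in the cDC1 list. Lsp1, a leukocyte actin-binding protein, was at 715 and 1539.7 CPM against 95.4, 114 and 382 CPM, Tmsb10 at 4357 and 2271 CPM against 938, 698 and 808 CPM, and S100a11 at 1081 and 1243 CPM against 122, 92.6 and 342 CPM. Both dendritic sums lay above all 3 macrophage sums in each. Actb itself was at 14013 and 21055 CPM against 8139, 5665 and 10659.7 CPM (-0.98 ± 0.23, adjusted p = 0.00861). Only 3 of the 12 calls held without the mouse block, and the call of Actb was also lost without the Ptprc limit (adjusted p = 0.54).

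Markers of other cells moved with the sides in part. Of 8 acinar genes, 6 were higher on the macrophage side in the fit, among them Ctrb1, a chymotrypsinogen, at 5032 and 1603 CPM against 3608 and 412 CPM in mice 2 and 3 (1.38 ± 0.33), and none of the 6 was called without the mouse block. Ctrb1 was present in 93.0% of insulin-rich cells and in 94.8% and 90.4% of macrophage-side and dendritic-side cells of mouse 3. The summed acinar list was at 16608 and 4162 CPM on the macrophage side and 11869.6 and 1319.5 CPM on the dendritic side. Of the 7 endocrine genes, 1 passed, and summed levels were 2541 and 2039 CPM against 1194 and 1484 CPM. No T cell, neutrophil, pericyte or Schwann gene was abundant enough for the fit, and summed T cell markers stayed at or below 30.9 CPM in mice 2 and 3. The part of free RNA in the results was not tested. Removing cells with 3 or more markers of another class other than acinar left 424 and 263 genes called.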

How the data were processed

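The deposited matrices of 3 libraries hold UMI counts for each gene and barcode, which the authors made with Cell Ranger 2.2 and mm10, per the submitters' processing notes. The matrix headers name software version 3.1.0. How the deposited barcodes were selected is not given in the sources used here. The libraries held 32389170, 48076507 and 57849496 UMIs.

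The rule of the gate, the members and all gene lists were chosen with earlier results of these data known. UMIs were summed per mouse and side and tested with edgeR 4.0.16 in R 4.3.3 (filterByExpr by side, TMM, robust glmQLFit, glmQLFTest, the mouse as a block, Benjamini-Hochberg over all genes tested, threshold 0.05). The planned minimum of 10 cells per mouse and side left only mouse 3, for which no test was planned, so the minimum of 9 is an added choice. The genes of the gate, hormone and mitochondrial genes stayed in library sizes and out of every count of calls. Both sides come from the same animal, and differences from the side's mean correlated at 0.369 over 2323 genes between sides of a mouse. Adjusted p-values rest on 1 residual degree of freedom from 2 mice and on a variance shared across genes, with a median of 17.1 prior degrees of freedom. They are thus no measure of the spread between mice for a single gene. They also do not cover the error of dividing the same cells into sides. On simulated counts of this comparison, over 4468 genes with 200 changed 4-fold, 94.1% of changed genes were recovered and 2.28% of calls were false. These shares hold for the simulated counts only and give no rate of false calls among the real genes. Whether the simulated spread matches that of single genes between mice was not tested. CPM are per 1000000 of a side's summed UMIs without TMM. Intervals at 95% (Poisson for a level, conditional binomial for a ratio of sums) and limits from a count of 0, set at 3 counts, cover counting error only.

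Named genes are the 12 largest log2 differences in each direction among called genes with the same sign in both mice, a difference of at least 1 and a mean of 50 CPM on the higher side, leaving out numbered gene models, and for each list the 5 members, or fewer, of smallest p. All members of the macrophage, dendritic and class II lists could be named as well. Some genes within these rules are not reported here. Other members, the sets of 4 genes and Ighm were chosen after their values were seen. Scrublet scores came from scanpy 1.11.5, and no cell was removed in the main comparison. As an alternative, the highest scores were removed at 0.8% per 1000 barcodes. Other alternatives were stricter cell limits, other C1q and class II limits, other scaling, DESeq2 1.42.0, no filter on low counts, thinning to 2000 UMIs and leaving out each mouse. Gene positions are from GENCODE for GRCm38, which is mm10. Sums and intervals were made with pandas 2.3.3, scipy 1.17.1 and numpy 2.4.6 under Python 3.11.15, and plots with matplotlib 3.10.9.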

Additional observations from a re-analysis of the deposited data

Results flagged for a closer look

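A signal appeared among gated leukocytes that neither side took. Of the 21 such cells below the class II limit, 9 (42.9%) carried at least 3 of 10 markers of natural killer and innate lymphoid cells, against 0 of 1321 insulin-rich cells, 4 of 146 macrophage-side cells (2.74%) and 1 of 62 dendritic-side cells (1.61%). The count rests mainly on Il7r, Gata3, Il2ra and Rora, since the natural killer genes of the list were nearly lacking in the 21 cells, with Ncr1 in 1, Prf1 in 1, Nkg7 in 3 and Klrb1c, Gzma and Gzmb in 0. Il7r, the interleukin-7 receptor, was found in 10 of the 21 cells (47.6%), but also in 59 of 146 macrophage-side cells (40.4%) and 13 of 62 dendritic-side cells (21.0%). Gata3 was found in 8 of the 21 cells, Il2ra in 8 and Il1rl1, the interleukin-33 receptor, in 7. Rora was found in 8, but also in 35.6% of insulin-rich cells. T cell markers reached 3 or more in 3 of the 21 cells. The cells came from all mice, 2 from mouse 1, 3 from mouse 2 and 16 from mouse 3, and held a median of 3634 UMIs against 17955 in insulin-rich cells.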

How the results depend on the processing

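The counts of mouse 3, 288 genes higher on the macrophage side and 312 on the dendritic side, became 452 and 792 with cells thinned to 2000 UMIs and 3432 and 2381 with no filter on low counts. Leaving out each mouse gave 288 to 485 and 312 to 591, the upper values being those of mouse 2 alone. The edgeR counts of 310 and 189 became 473 and 351 with at least 2 UMIs of every C1q gene on the macrophage side and 95 and 43 with DESeq2's Wald test over 2051 genes. Without the replicate block they became 207 and 82, and with library sizes alone 342 and 322. Under the other edgeR settings that could be fitted they lay within 1.5 times. Of 110 called genes followed across settings, among them those named, 76 were called without the block and 82 without the Ptprc limit. Dropping that limit gave 247 and 126 of 6031 genes (4.1% and 2.09%), from sides that also took cells with no Ptprc UMI. DESeq2 gave an adjusted p for 82 of the 110 and called 57. No called gene changed sign in the settings in which it was fitted. The settings of 1000 genes per cell, thinning and removal of shared barcodes leave 8 dendritic-side cells in mouse 2, and leaving out mouse 2 or 3 leaves 1 mouse, so no edgeR fit was made there. Removal of cells marked by any other class was not run as a comparison, because acinar RNA marks nearly all cells of both sides. The precision is limited by 9 dendritic-side cells in mouse 2 and by 2 mice in the test.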

Other observations

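Stress, interferon and cycling genes lay outside the comparison of cell identity. Of 18 tested genes of the dissociation response, 8 were higher on the macrophage side and 1, Nr4a1, on the dendritic side, with a median log2 difference of 0.62. Jun was at 2513 and 2377 CPM against 776 and 1037 CPM in mice 2 and 3 (1.60 ± 0.29, adjusted p = 0.00103 in edgeR), and Egr1 at 1482 and 1438 CPM against 523 and 709.7 CPM. Only 3 of the 8 were called without the mouse block and 2 without the Ptprc limit. Of 16 tested interferon-stimulated genes, 5 were higher on the macrophage side, among them Bst2 (1.73 ± 0.32) and Isg15 (1.52 ± 0.33), and 1, Ifi205, on the dendritic side. In energy metabolism, 1 of 18 tested oxidative phosphorylation and 1 of 11 tested glycolysis genes were called, both higher on the dendritic side. Over all 4784 genes 10.4% were called in either direction. The medians of the 2 lists were 0.06 and -0.20, and genes that did not pass are not shown to be equal.

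At least 3 cell cycle genes were detected in 6 of 13, 8 of 37 and 39 of 96 macrophage-side cells of mice 1, 2 and 3 (46.2%, 21.6% and 40.6%) and in 2 of 9 and 22 of 52 dendritic-side cells of mice 2 and 3 (22.2% and 42.3%). After thinning to 2000 UMIs the counts over all mice were 11 of 133 and 7 of 59, with 13 and 3 cells too shallow to thin. Of 9 tested cell cycle genes, only Top2a was called in edgeR, higher on the dendritic side (-1.89 ± 0.47, adjusted p = 0.0133). Over all 4784 genes 3.95% were called in that direction. No gene of the list was called without the mouse block or without the Ptprc limit. Summed levels were 812 and 791 CPM on the macrophage side against 514 and 1679 CPM in mice 2 and 3.

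Ighm, the gene of the immunoglobulin mu heavy chain, had a UMI in 92 of 146 macrophage-side cells (63.0%) and 23 of 62 dendritic-side cells (37.1%), against 1 of 1321 insulin-rich cells. Its levels were 143, 201 and 176 CPM in the macrophage sums and 43.6 and 86.4 CPM in the dendritic sums of mice 2 and 3 (1.5 ± 0.34, adjusted p = 0.00751), and without the Ptprc limit the adjusted p was 0.24. Other B cell genes were nearly lacking: Igkc was found in 1 and 0 cells, Cd79a in 0 and 0, and Cd79b in 13 and 0.

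Single cells carried some macrophage-side sums of mouse 1. Of its 257 Fabp5 UMIs 60.7% lay in 1 cell, of its 414 Lgals3 UMIs 57.2%, of its 546 Ctsd UMIs 49.6% and of its 41 Mrc1 UMIs 78.0%. All 41 F13a1 UMIs of that mouse lay in 1 cell.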
